A study of Schizosaccharomyces pombe with 12 samples.

Results

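The nuclear genes of the mitochondrial respiratory chain were taken from the gene rows of the count files by name: every row called cox, qcr, atp, sdh, cyt, rip, cyc, nde or ndi followed by a number, without cox1, cox2, cox3, atp6, atp8 and atp9, which the mitochondrial genome encodes. This gave 56 of 7013 genes. By role, 37 encode NADH dehydrogenases, subunits of complexes II, III and IV and of ATP synthase, or cytochrome c, and 19 encode assembly and maturation proteins. The 37 are 2 NADH dehydrogenases, 4 subunits of complex II, 9 of complex III, cytochrome c itself, 8 subunits of complex IV and 13 of ATP synthase. The 19 are 2 factors for complex II, 9 for complex IV, 5 for ATP synthase, 2 haem lyases and cox24. The last of these, despite its name, is annotated as a protein of the small subunit of the mitochondrial ribosome.

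RNA came from Schizosaccharomyces pombe (fission yeast) of 4 genotypes, with 3 libraries each. Cells carried wild-type histone H3 (WT), H3 with glycine 34 changed to arginine (G34R) or to valine (G34V), or wild-type H3 in a strain labelled Set2D, taken to lack set2 (set2Δ), the gene of the H3 methyltransferase Set2. All cultures grew in the rich medium YES at 25 °C, and libraries were made from 2 µg of total RNA depleted of ribosomal RNA. The strains' other alleles, including the state of the remaining H3 gene copies, are not described in the labels used here, nor is it stated whether the 3 libraries of a genotype came from separate cultures, so the spread that p-values rest on may be technical.

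The respiratory chain passes electrons from NADH and succinate through ubiquinone, complex III and cytochrome c to oxygen at complex IV, and the proton gradient that complexes III and IV build drives ATP synthase. Fission yeast has no proton-pumping complex I and oxidises NADH with dehydrogenases of a single polypeptide. Most subunits are made in the cytosol from nuclear genes, while a few core subunits of complexes III and IV and of ATP synthase are encoded in the mitochondrial genome, and dedicated assembly proteins join the parts and insert haem and copper.

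Between 65797517 and 228726069 counts fell in genes per library, and all 56 genes were among the 6602 tested. Levels are in CPM on library sizes rescaled by TMM factors, differences are log2 fold changes with their standard error (SE), and a gene was called at an adjusted p under 0.05 in edgeR's quasi-likelihood test, adjusted over all tested genes. The replicate coefficient of variation of the 56 genes had a median of 2.32%. The level of set2 checks the label Set2D alone, and stood at 133, 129 and 122 CPM (WT), 109, 109 and 112 (G34R), 126, 129 and 135 (G34V) and 4.38, 3.702 and 3.69 (set2Δ). It was also lower in G34R than in WT (−0.22, SE 0.037, adjusted p = 0.00020), with 0.023, SE 0.038, adjusted p = 0.63 for G34V. The H3 gene hht2 was lower than in WT in all 3 mutants, G34R (−0.16, SE 0.040, adjusted p = 0.0034), G34V (−0.23, SE 0.040, adjusted p = 0.00019) and set2Δ (−0.20, SE 0.040, adjusted p = 0.00034). The H3 changes themselves cannot be checked from counts. Every value in the file of set2Δ replicate 3 was even, for which no source used here gives a reason, so counts are also given without that library. In bulk RNA, a lower level per cell and fewer cells with a transcript cannot be told apart.

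In WT the genes spanned a wide range of abundance. Per kilobase of annotated exon, the 35 subunit and cytochrome c genes with a length had a median of 250.3 CPM, from 119.9 for atp18 to 1025 for atp2, the beta subunit of ATP synthase. The 19 assembly and maturation genes had a median of 28.0 CPM per kilobase, from 4.77 for cox1102 to 91.1 for cyt2. On this scale the highest of them therefore lay below the lowest subunit. The genes cox1101 and cox1102 encode closely related proteins, and reads aligned to several places were not counted. Their levels may therefore be understated, and apart from them the lowest of the 19 was atp10. In each complex the highest subunit was sdh4 at 405 CPM per kilobase in complex II, qcr1 at 515 in complex III, cox12 at 419 in complex IV and atp2 in ATP synthase. Cytochrome c (cyc1) stood at 601 CPM per kilobase of exon. Its order depended on the length used, since per kilobase of coding sequence cyc1 was at 2145 CPM and atp2 at 1230.5. Other orders changed as well. Per kilobase of coding sequence qcr7 at 965 CPM stood above qcr1 at 771, and cox9 at 749 above cox12 at 648. The assembly gene cox14, at 217 CPM, then stood above the subunit gene cox8, at 181. No length was used for nde1 and nde2, because the reference treats nde2 as an older name of its nde1 and the rows could not be placed.

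Summed over the 37 subunit and cytochrome c genes, transcript levels were lower in all 3 mutants than in WT. The sum was 11663, 11509 and 11560.0 CPM (WT), 10908, 10801 and 10654 (G34R), 10773, 10885 and 10704 (G34V) and 10423, 10289 and 10352 (set2Δ). The 3 libraries of each mutant lay below all 3 of WT, and the mean was 6.82% lower in G34R, 6.82% lower in G34V and 10.6% lower in set2Δ. The sum over the 19 assembly and maturation genes was 808, 826 and 821 CPM (WT), 754, 752 and 753 (G34R), 786, 783 and 797 (G34V) and 858, 851 and 834 (set2Δ). It was below WT in every library of G34R, by 8.02% on the mean, and of G34V, by 3.68%, but in set2Δ all 3 libraries lay above WT, by 3.52%. The sums carry no test, and the few most abundant genes weigh most in them. In set2Δ the largest gains among assembly and maturation genes were in cox14 (mean of 45.5 CPM in WT and 60.04 in set2Δ), sdh7 (46.2 and 56.7) and cox17 (26.1 and 35.3). Of the 19 genes, 10 had a positive log2 fold change there and 9 a negative one, with a median of 0.0039. The higher sum therefore does not stand for the whole group. The sums were also computed under 4 other scalings, chosen after seeing the data. With library sizes alone the subunit sum was 4.799% below WT for G34R, 6.85% for G34V and 6.55% for set2Δ, so that G34V had the lowest. Every mutant library still lay below WT in this sum under each of the 4, and in set2Δ it was 7.86% lower with upper quartile scaling and 8.35% with TMM on protein-coding genes. The assembly sum of set2Δ stood above WT in all 4, by 3.65% to 8.17%, and the G34V libraries overlapped WT in 3 of the 4.

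**Figure D1:**
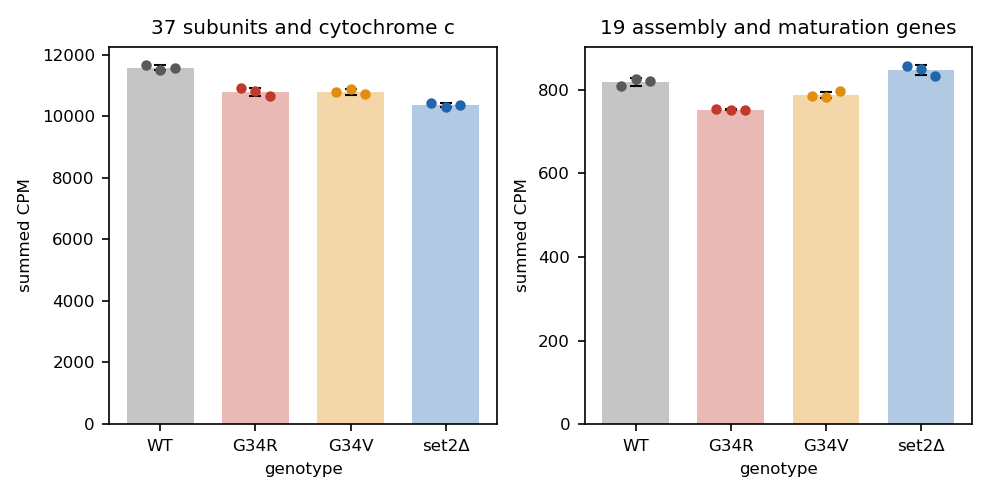
Summed CPM (vertical axis) of the 37 subunit and cytochrome c genes (left) and of the 19 assembly and maturation genes (right) by genotype. Bars are means, points single libraries and error bars the SD (n = 3). Under TMM scaling the subunit sum is lowest in set2Δ at 10355 ± 66.6 CPM against 11577 ± 78.3 in WT, while the assembly sum is highest in set2Δ at 847 ± 12.3 CPM. With library sizes alone the subunit sum is lowest in G34V.

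The sums of each complex were also below WT in the 3 mutants. The WT sum of complex III subunits was 3089 ± 15.9 CPM (SD, n = 3), against 2909 ± 49.3 (G34R), 2848 ± 24.01 (G34V) and 2719 ± 25.7 (set2Δ). The WT sum of ATP synthase subunits was 4554 ± 65.4 CPM, against 4273 ± 37.7 (G34R), 4281 ± 53.4 (G34V) and 3994 ± 66.1 (set2Δ). In both complexes set2Δ had the lowest sum, 11.98% and 12.3% below WT. With library sizes alone these became 8.02% and 8.34%, beside 7.83% and 6.01% in G34V. Complex IV subunits were 8.07%, 9.12% and 8.89% below WT in G34R, G34V and set2Δ, but 6.09%, 9.14% and 4.82% with library sizes alone. For complex II subunits the sum was below WT by 8.76% (G34R), 4.29% (G34V) and 9.92% (set2Δ), and by 6.76%, 4.31% and 5.90% with library sizes alone. The G34V libraries overlapped WT in this sum under RLE scaling (3.88% lower), upper quartile scaling (2.27%) and TMM on protein-coding genes (2.81%).

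In G34R against WT, 42 of the 56 genes were lower and 1, the complex III subunit gene qcr9, was higher. Among all 6602 tested genes, 26.6% were lower and 26.8% higher, and among the 5054 protein-coding genes 32.6% and 18.7%. The lower calls took in 27 of 37 subunit and cytochrome c genes and 15 of 19 assembly and maturation genes. Differences were small, with a median of −0.11 on the log2 scale over the 56 genes, against −0.0022 over all genes and −0.027 over protein-coding genes. By complex, both NADH dehydrogenases, 4 of 4 complex II subunits, 4 of 9 complex III subunits, cytochrome c, 7 of 8 complex IV subunits and 9 of 13 ATP synthase subunits were lower. Of the 42 lower calls, 24 held whichever single library was left out and 23 in every alternative tried, and 26 genes were lower without G34R replicate 3. Scaling on protein-coding genes left 26 lower and 1 higher, and scaling by library size alone 24 and 1; across all genes these scalings gave 20.2% lower and 33.5% higher, and 18.7% and 31.4%.

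In G34V against WT, 33 genes were lower and 0 higher, where 25% of all tested genes were lower and 25.1% higher (29.8% and 19% of protein-coding genes). At an unadjusted p under 0.05, 1 gene was higher, the complex II assembly gene sdh8; DESeq2 called 1 higher and limma 0. The lower calls were 25 of the 37 subunit and cytochrome c genes and 8 of the 19 assembly and maturation genes, and the median over all 56 was −0.097. The subunits called lower were 1 NADH dehydrogenase, 3 of 4 in complex II, 4 of 9 in complex III, cytochrome c, 7 of 8 in complex IV and 9 of 13 in ATP synthase. In 26 of the 33 the call held whichever library was left out, and in 22 under every alternative. With upper quartile scaling 23 genes were lower and 1 higher, beside 17.6% and 30.8% of all genes.

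In set2Δ against WT, 36 genes were lower and 5 higher, where 35.6% of all tested genes were lower and 34.5% higher (41.8% and 27.5% of protein-coding genes). The lower calls lay mostly among subunits. Of the subunit and cytochrome c genes 31 of 37 (83.8%) were lower and 0 higher. The count of 0 higher was the same at an unadjusted p under 0.05 and in DESeq2 and limma. Of the 19 assembly and maturation genes 5 were higher and 5 lower, 26.3% each, below both shares of all genes. The medians were −0.15 for subunits and 0.0039 for assembly and maturation genes, beside −0.0057 over all genes. Lower subunits were both NADH dehydrogenases, 4 of 4 in complex II, 8 of 9 in complex III, 6 of 8 in complex IV and 11 of 13 in ATP synthase. Without set2Δ replicate 3, 34 genes were lower and 5 higher, and 5 of the 5 higher and 32 of the 36 lower calls held whichever library was left out. Under every alternative, scalings included, 5 of 5 higher and 25 of 36 lower calls held. Under scaling by library size alone 25 were lower and 10 higher, 2 of these subunits (24.6% and 42.3% of all genes), under upper quartile scaling 28 and 9 with 1 subunit (28.4% and 40.5%), and under scaling on protein-coding genes 30 and 9 with 1 subunit (29.8% and 39.4%). The 3 comparisons share the WT libraries and are therefore not independent of each other.

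**Figure D2:**
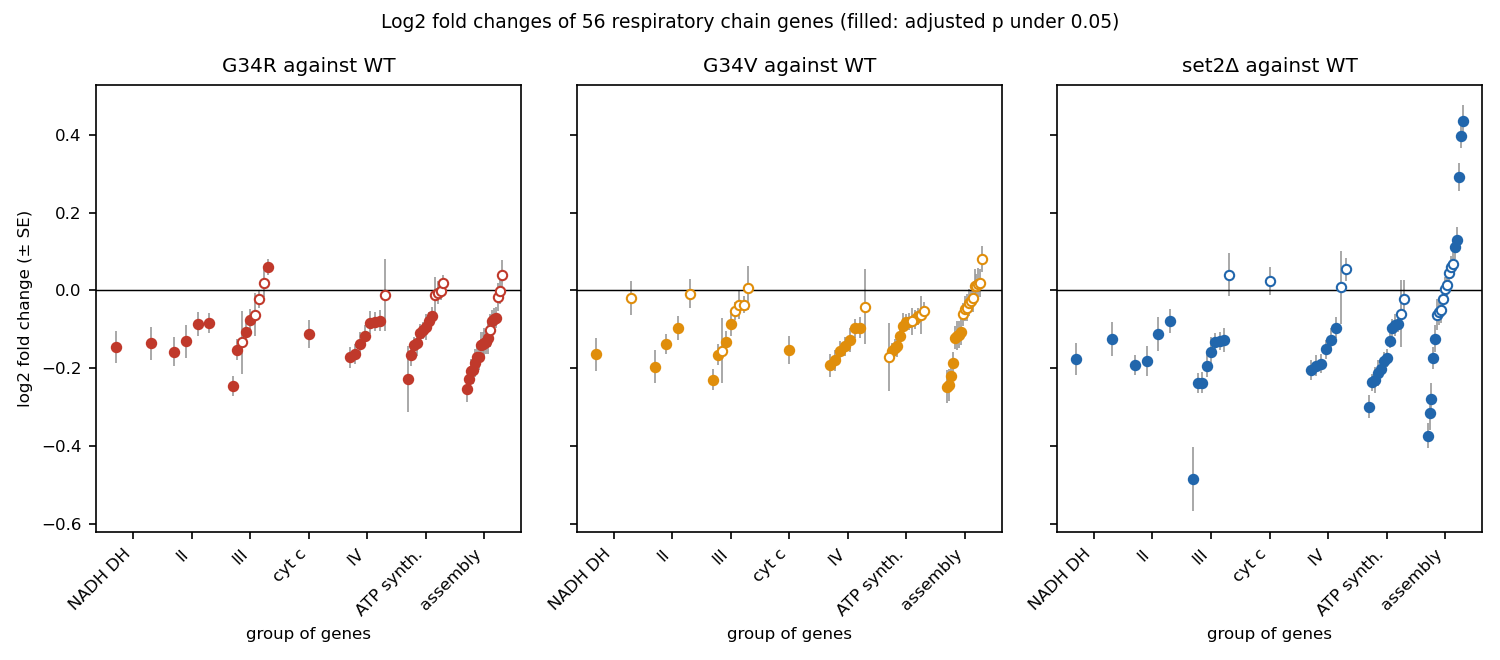
Log2 fold change against WT (vertical axis, with SE) of each of the 56 genes in G34R, G34V and set2Δ, by group of genes (horizontal axis), sorted within each group. Filled points were called at an adjusted p under 0.05 and open points were not. Subunits lie mostly below 0 in each panel, and the genes called above 0 in set2Δ are all in the assembly and maturation group.

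Both NADH dehydrogenase genes, whose enzymes feed electrons from NADH to ubiquinone, had lower levels in mutants. Transcripts of nde1 stood at 238, 246 and 234 CPM (WT), 219.6, 223 and 207 (G34R), 223, 217 and 199.8 (G34V) and 222, 207 and 207 (set2Δ). All mutant libraries lay below WT, and nde1 fell in G34R (−0.14, SE 0.041, adjusted p = 0.0090), G34V (−0.16, SE 0.042, adjusted p = 0.0045) and set2Δ (−0.18, SE 0.041, adjusted p = 0.0015). The other gene, nde2, was at 341, 324 and 307 CPM (WT), 297, 300.1 and 288 (G34R), 323, 331 and 306 (G34V) and 313, 297 and 283 (set2Δ). Its G34R libraries lay below WT and it fell there (−0.14, adjusted p = 0.015), and it was called lower in set2Δ (−0.12, adjusted p = 0.017) with overlapping libraries. The G34R call was lost without WT replicate 1 or G34R replicate 3 and with library sizes alone (adjusted p up to 0.081). The set2Δ call was lost without WT replicate 1 or set2Δ replicate 3 (up to 0.12). It was also lost with upper quartile scaling, library sizes alone and TMM on protein-coding genes (up to 0.26). In G34V nde2 was not called (−0.020, adjusted p = 0.72).

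Succinate dehydrogenase, complex II, links the tricarboxylic acid (TCA) cycle to the chain. The gene of the flavoprotein that oxidises succinate, sdh1 (SPAC1556.02c, chromosome I) was at 821, 782 and 801 CPM (WT), 711, 712 and 732 (G34R), 765, 807 and 818 (G34V) and 706, 672 and 741 (set2Δ). Its G34R and set2Δ libraries lay below WT and those of G34V overlapped WT. It fell in G34R (−0.16, SE 0.038, adjusted p = 0.0025) and set2Δ (−0.18, SE 0.038, adjusted p = 0.00049), not in G34V (−0.0083, adjusted p = 0.87), and the G34R level was below that of G34V in the direct contrast (−0.15, SE 0.038, adjusted p = 0.0043). The anchor gene sdh4 (listed under tim18 in the reference) was at 211, 199 and 222 CPM (WT), 198, 187 and 193 (G34R), 182, 184 and 187 (G34V) and 183, 194 and 207 (set2Δ). All G34R and G34V libraries lay below WT. It fell in G34V (−0.20, SE 0.043, adjusted p = 0.0019). Its calls in G34R (−0.13, adjusted p = 0.019) and in set2Δ (−0.11, adjusted p = 0.031), where 1 library overlapped WT, did not hold: the first was lost without WT replicates 1 or 3 or G34R replicate 2 (adjusted p up to 0.088), the second without WT replicates 1 or 3 or set2Δ replicates 1 or 2 (up to 0.15). The cytochrome b anchor gene sdh3 differed by −0.083, −0.14 and −0.19 from WT in G34R, G34V and set2Δ, and the iron-sulfur subunit gene sdh2 by −0.086, −0.097 and −0.078. All 6 of these differences were called. Those of sdh3 in G34V and set2Δ held in every alternative, and the others did not hold in every left-out fit. In set2Δ the calls of sdh2 (adjusted p up to 0.65) and sdh4 (up to 0.23) were also lost in other settings. These were upper quartile scaling, library sizes alone, TMM on protein-coding genes and 2 groups only. The G34R call of sdh3 was lost without G34R replicate 2 (adjusted p 0.062) and with library sizes alone and TMM on protein-coding genes (up to 0.16). Those of sdh2 were lost in G34R without WT replicate 3 or G34R replicates 1, 2 or 3 (up to 0.17), in G34V without WT replicate 3 or G34V replicates 1 or 3 (up to 0.095) and in set2Δ without WT replicate 3 or set2Δ replicate 1 (up to 0.21). Upper quartile scaling and TMM on protein-coding genes also removed the G34R and G34V calls of sdh2, and library sizes alone that in G34R. TMM on protein-coding genes removed the G34R call of sdh4 as well.

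Complex III transfers electrons from ubiquinol to cytochrome c, and its genes did not move uniformly. The core protein gene qcr2 (SPCC613.10, chromosome III) was at 383, 385 and 396 CPM (WT), 336, 328 and 318 (G34R), 333, 335 and 324 (G34V) and 326, 333 and 327 (set2Δ). Every mutant library lay below every WT library. It fell by 15.6% in G34R (−0.25, SE 0.026, adjusted p = 2.2e-06), 14.7% in G34V (−0.23, SE 0.026, adjusted p = 4.8e-06) and 15.2% in set2Δ (−0.24, SE 0.026, adjusted p = 9.0e-07). The other core protein gene, qcr1, was at 1061, 1039 and 1080.1 CPM (WT), 1016, 1005 and 996 (G34R), 975, 982 and 945 (G34V) and 928, 919 and 935 (set2Δ). Again no mutant library reached WT, and qcr1 fell in G34V (−0.13, SE 0.029, adjusted p = 0.0014) and set2Δ (−0.19, SE 0.029, adjusted p = 2.0e-05). Its smaller difference in G34R (−0.076, adjusted p = 0.036) was lost without WT replicates 1 or 3 or G34R replicates 1, 2 or 3 (adjusted p up to 0.12). With upper quartile scaling, library sizes alone and TMM on protein-coding genes this call was lost too (up to 0.18). Cytochrome c1 (cyt1), the haem subunit that hands electrons on, fell by 0.15, 0.17 and 0.24 on the log2 scale in G34R, G34V and set2Δ, with adjusted p = 0.00025, 0.00014 and 1.3e-06.

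The small subunit gene qcr9 (SPCC1682.01, chromosome III) went in opposite directions in 2 mutants. It was at 190.2, 189 and 190.4 CPM (WT), 199, 200.2 and 195 (G34R), 183, 183 and 190.3 (G34V) and 172, 174 and 174 (set2Δ). G34R libraries lay above WT, set2Δ libraries below, and G34V overlapped WT. The set2Δ decrease (−0.13, SE 0.021, adjusted p = 5.3e-05) held whichever library was left out, while the G34R increase (0.060, SE 0.021, adjusted p = 0.028) was lost without WT replicates 1 or 2 or G34R replicates 1 or 2 (adjusted p up to 0.11). The direct contrast of G34R with set2Δ was called (0.19, SE 0.021, adjusted p = 1.1e-06). The subunit gene qcr8 showed the largest difference of any of the 56 genes in set2Δ and also wide replicate spread, at 93.7, 89.9 and 74.2 CPM (WT), 77.2, 79.7 and 77.7 (G34R), 73.6, 78.4 and 79.7 (G34V) and 66.7, 58.1 and 59.5 (set2Δ). Its set2Δ libraries lay below WT (−0.48, SE 0.083, adjusted p = 0.00045), and the G34R and G34V libraries overlapped WT and were not called. The subunit genes qcr6 and qcr7 were called in set2Δ (−0.16 and −0.13), qcr6 not with library sizes alone (adjusted p 0.059). The direct contrasts with set2Δ were called for both in G34R (0.18 and 0.11) and in G34V (0.12 and 0.077). The G34V contrast of qcr6 was lost without set2Δ replicate 3 (adjusted p 0.052). With library sizes alone the G34V contrasts of qcr6 and qcr7 were lost (0.26 and 0.68). The gene qcr10 was not called in any mutant. The Rieske iron-sulfur protein gene rip1 differed by −0.11, −0.087 and −0.13, all called. Its G34R call was lost without G34R replicate 3 (adjusted p 0.050), its G34V call without WT replicates 1 or 2 or G34V replicate 1 (up to 0.13). Its set2Δ call was lost with library sizes alone (0.073), as was its G34R call. Its G34V call was also lost with upper quartile scaling and TMM on protein-coding genes (up to 0.16).

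Cytochrome c carries electrons from complex III to complex IV. Its gene cyc1 was at 694, 692 and 738 CPM (WT), 670.0, 653 and 642 (G34R), 654, 633 and 622 (G34V) and 699, 749 and 713 (set2Δ). Libraries of G34R and G34V lay below WT, and set2Δ overlapped it. It fell in G34V (−0.15, SE 0.035, adjusted p = 0.0022) and in G34R (−0.11, SE 0.035, adjusted p = 0.015), the latter not without WT replicate 3 or G34R replicate 3 (adjusted p up to 0.080), and was not called in set2Δ (0.025, adjusted p = 0.55). Library sizes alone and TMM on protein-coding genes also removed the G34R call of cyc1. Both histone mutants were below set2Δ in the direct contrasts (−0.14, SE 0.035, adjusted p = 0.0030 for G34R and −0.18, SE 0.036, adjusted p = 0.00045 for G34V).

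Complex IV, cytochrome c oxidase, reduces oxygen to water. The subunit gene cox5 was at 266, 266 and 273 CPM (WT), 243, 239 and 233 (G34R), 236, 237 and 237 (G34V) and 224, 234 and 240.1 (set2Δ), and cox4 was at 216, 222 and 215 CPM (WT), 198, 197 and 188 (G34R), 196, 198 and 198 (G34V) and 186, 195 and 192 (set2Δ). All mutant libraries of both lay below WT. The gene cox5 fell in G34R (−0.17, SE 0.026, adjusted p = 6.4e-05), G34V (−0.18, SE 0.026, adjusted p = 5.1e-05) and set2Δ (−0.20, SE 0.026, adjusted p = 4.7e-06). The difference of cox4 was −0.16, −0.14 and −0.19, all called in every left-out fit. The gene cox12, highest of the complex per kilobase of exon, was at 168, 171 and 168 CPM (WT), 161, 163 and 156 (G34R), 158, 158 and 158 (G34V) and 147, 153 and 156 (set2Δ). All mutant libraries lay below WT. It fell in G34V (−0.098, adjusted p = 0.0038) and set2Δ (−0.15, adjusted p = 4.7e-05), and in G34R (−0.081, adjusted p = 0.011) but lost that call, at 0.068, with G34R replicate 3 left out. Library sizes alone and TMM on protein-coding genes also removed the G34R call of cox12 (up to 0.12). The gene cox13 was the exception: at 169, 169.9 and 167 CPM (WT), 155, 152 and 153 (G34R), 153, 150.0 and 161 (G34V) and 184, 171 and 171 (set2Δ), it was lower in G34R (−0.14, adjusted p = 0.0011) and G34V (−0.13, adjusted p = 0.0023) and not called in set2Δ (0.055, adjusted p = 0.11), where all 3 libraries lay above WT. The direct contrasts of cox13 with set2Δ were called (−0.19, SE 0.030, adjusted p = 3.2e-05 for G34R and −0.18, SE 0.030, adjusted p = 7.3e-05 for G34V). The subunit genes cox6, cox7 and cox9 were called lower in all 3 mutants, by −0.078, −0.12 and −0.084 in G34R, −0.096, −0.16 and −0.19 for G34V, and −0.19, −0.096 and −0.13 for set2Δ. Among these the G34R calls of cox6 and cox9 were lost, without WT replicate 2 or G34R replicates 2 or 3 for cox6 (adjusted p up to 0.11) and without WT replicates 1 or 3 or G34R replicates 2 or 3 for cox9 (up to 0.10), and under 3 other scalings each. In set2Δ the call of cox7 was lost under 3 other scalings (down to −0.034, adjusted p up to 0.32) and that of cox9 with library sizes alone (0.074). In G34V that of cox6 was lost with upper quartile scaling (0.081). The gene cox8 was not called in any mutant, with SEs of 0.093 to 0.096, more than the size of any difference it showed.

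ATP synthase couples the proton gradient to ATP synthesis through a catalytic head, a stalk and a membrane part. The catalytic beta subunit gene atp2 was at 1979, 1916 and 1930.1 CPM (WT), 1812, 1826 and 1825 (G34R), 1853, 1881 and 1777 (G34V) and 1726, 1635 and 1668 (set2Δ). All mutant libraries lay below WT. It fell in set2Δ by 13.7% (−0.21, SE 0.034, adjusted p = 3.8e-05), was called in G34R (−0.093, adjusted p = 0.029) but not without WT replicates 1 or 3 or G34R replicates 1, 2 or 3 (adjusted p up to 0.11), and was not called in G34V (−0.080, adjusted p = 0.059). With upper quartile scaling, library sizes alone and TMM on protein-coding genes the G34R call of atp2 was lost too (up to 0.12). The alpha subunit gene atp1, the delta subunit gene atp16 and the peripheral stalk genes atp4 and atp7 were called lower in each mutant, with differences of −0.14, −0.10, −0.079 and −0.17 in G34R and −0.23, −0.085, −0.098 and −0.088 in set2Δ. In G34V they were −0.091, −0.067, −0.074 and −0.14, and the calls of atp1, atp16 and atp4 there were each lost in 2 or more left-out fits (adjusted p up to 0.15, 0.079 and 0.070). So was that of atp4 in G34R without G34R replicate 3 (0.066) and that of atp7 in set2Δ without WT replicate 1 or set2Δ replicate 3 (up to 0.065). Upper quartile scaling, library sizes alone and TMM on protein-coding genes also removed the G34R call of atp4 (up to 0.16). With upper quartile scaling and TMM on protein-coding genes the G34V calls of atp1, atp16 and atp4 were lost too. That of atp16 was also lost with 2 groups only. Adjusted p reached 0.23 for atp16 and 0.19 for atp4. In set2Δ the calls of atp16 and atp7 were also lost under 3 other scalings, where the difference shrank to −0.022 for atp16 (adjusted p up to 0.45) and −0.025 for atp7 (0.53), and that of atp4 under 2, to −0.035 (0.28). Of the small membrane part genes, atp19 was not called in any mutant, and atp18 was called in G34R (−0.23, adjusted p = 0.043) with overlapping libraries and not without WT replicates 1 or 2 or G34R replicates 2 or 3 (adjusted p up to 0.14). That call was also lost with upper quartile scaling, library sizes alone, TMM on protein-coding genes and 2 groups only. The membrane part gene atp20 was at 163, 169 and 162 CPM (WT), 151, 150.2 and 147 (G34R), 147, 147 and 148 (G34V) and 142, 143 and 144 (set2Δ). No mutant library reached WT, and atp20 fell in G34R (−0.14, SE 0.021, adjusted p = 5.5e-05), G34V (−0.16, SE 0.021, adjusted p = 2.5e-05) and set2Δ (−0.20, SE 0.021, adjusted p = 4.7e-07).

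The remaining ATP synthase genes are of the stalks and the membrane part. The peripheral stalk gene atp5 (SPCC1840.06, chromosome III) was at 219.9, 218 and 219 CPM (WT), 222, 219 and 215 (G34R), 202, 197 and 194 (G34V) and 183, 186 and 188 (set2Δ). G34R overlapped WT, G34V lay below both, and set2Δ lay below G34V. It fell in G34V (−0.15, SE 0.022, adjusted p = 5.1e-05) and set2Δ (−0.24, SE 0.022, adjusted p = 9.7e-08), its difference in G34R was −0.0027, adjusted p = 0.93, and G34R was higher than G34V in the direct contrast (0.15, SE 0.022, adjusted p = 7.2e-05). The epsilon subunit gene atp15 was at 130.1, 132 and 127 CPM (WT), 132, 131 and 125 (G34R), 116, 119 and 125 (G34V) and 104, 106 and 105 (set2Δ). The set2Δ and G34V libraries lay below WT, and the G34R libraries overlapped both WT and G34V. It fell in set2Δ by 18.7% (−0.30, SE 0.029, adjusted p = 2.0e-07) and in G34V (−0.12, SE 0.029, adjusted p = 0.0038), with −0.0055, adjusted p = 0.89 in G34R. The stalk gene atp14 was at 135, 137 and 135 CPM (WT), 129, 132 and 129 (G34R), 134, 131 and 127 (G34V) and 118, 123 and 119.8 (set2Δ). Mutant libraries lay below WT, those of set2Δ lowest. It fell in set2Δ (−0.17, SE 0.024, adjusted p = 7.7e-06), its call in G34R (−0.065, adjusted p = 0.029) was lost without WT replicates 1 or 2 or G34R replicates 1 or 3 (adjusted p up to 0.088), and in G34V it was not called (−0.053, adjusted p = 0.074). Upper quartile scaling, library sizes alone and TMM on protein-coding genes also removed the G34R call of atp14 (up to 0.34). The membrane part gene atp17 was at 152, 148 and 148 CPM (WT), 153, 149.5 and 152 (G34R), 141, 139.9 and 142 (G34V) and 137, 134 and 138 (set2Δ). The G34V and set2Δ libraries lay below WT. It overlapped WT in G34R (0.019, adjusted p = 0.45) and fell in G34V (−0.082, adjusted p = 0.0037) and set2Δ (−0.13, adjusted p = 4.0e-05). The G34V call was lost with upper quartile scaling (0.060).

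**Figure D3:**
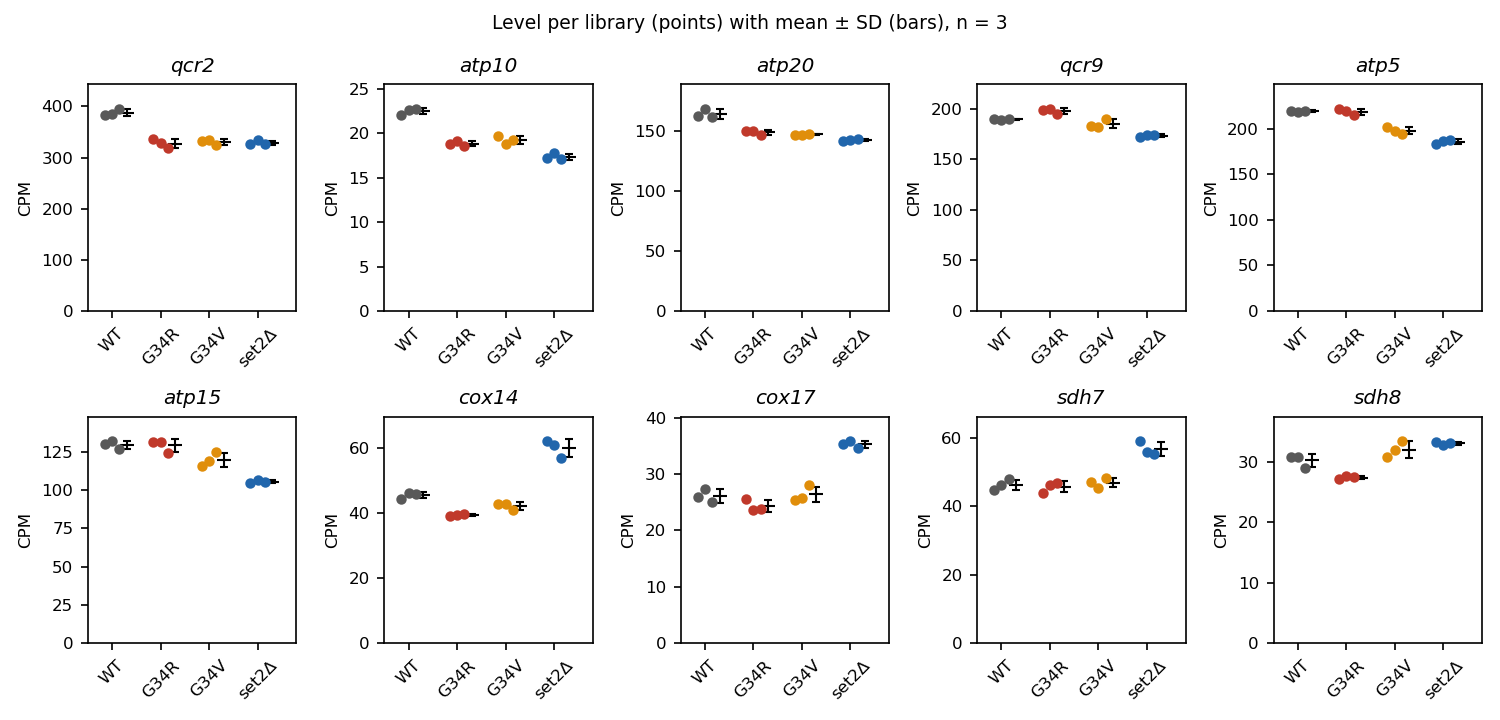
CPM (vertical axis, from 0) in each of the 12 libraries for 10 genes, by genotype; points are libraries and the bars beside them mean ± SD (n = 3). The WT points of qcr2, atp10 and atp20 lie above all mutant points, atp5 and atp15 are lowest in set2Δ, and cox14, cox17 and sdh7 are highest in set2Δ.

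Of the 19 assembly and maturation genes, 15 fell in G34R and 8 in G34V, and in set2Δ 5 fell and 5 rose. The ATP synthase assembly gene atp10 (SPAC4G8.11c, chromosome I) was at 22.1, 22.6 and 22.8 CPM (WT), 18.8, 19.2 and 18.6 (G34R), 19.7, 18.8 and 19.3 (G34V) and 17.2, 17.8 and 17.1 (set2Δ). Every mutant library lay below WT, and the set2Δ libraries below all others. It fell by 16.2% in G34R (−0.25, SE 0.031, adjusted p = 8.5e-06), 14.2% in G34V (−0.22, SE 0.032, adjusted p = 5.1e-05) and 22.8% in set2Δ (−0.37, SE 0.032, adjusted p = 4.9e-08). The gene cox10, whose enzyme makes haem O on the way to the haem A of complex IV, was at 38.5, 39.1 and 37.1 CPM (WT), 32.3, 32.9 and 32.7 (G34R), 33.9, 33.5 and 33.3 (G34V) and 34.6, 33.96 and 33.3 (set2Δ). Mutant libraries again lay below WT, with falls in G34R (−0.23, SE 0.028, adjusted p = 6.8e-06), G34V (−0.19, SE 0.028, adjusted p = 6.5e-05) and set2Δ (−0.17, SE 0.028, adjusted p = 4.8e-05).

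The 5 genes that rose in set2Δ were cox14, cox17, sdh7, sdh8 and cyt2. The complex IV assembly gene cox14 (SPCC757.15, chromosome III) was at 44.4, 46.1 and 46.01 CPM (WT), 39.1, 39.4 and 39.7 (G34R), 42.9, 42.8 and 40.9 (G34V) and 62.2, 60.9 and 57.04 (set2Δ). It was above WT in every set2Δ library and below WT in every G34R and G34V library. It rose by 31.7% in set2Δ (0.40, SE 0.032, adjusted p = 2.1e-08) and fell in G34R (−0.21, SE 0.032, adjusted p = 6.7e-05) and in G34V (−0.11, SE 0.033, adjusted p = 0.014), the last not without G34V replicate 3 (adjusted p 0.058). Upper quartile scaling also removed the G34V call of cox14. The copper chaperone gene cox17, whose protein delivers copper for complex IV, was at 25.9, 27.4 and 25.00 CPM (WT), 25.5, 23.7 and 23.8 (G34R), 25.5, 25.7 and 27.9 (G34V) and 35.4, 35.8 and 34.6 (set2Δ). Only set2Δ stood apart from WT: cox17 rose there by 35.1% (0.43, SE 0.043, adjusted p = 2.1e-07), with −0.10, adjusted p = 0.053 in G34R and 0.011, adjusted p = 0.85 in G34V. The complex II assembly gene sdh7 was at 44.8, 46.1 and 47.8 CPM (WT), 43.8, 46.3 and 46.9 (G34R), 47.1, 45.5 and 48.1 (G34V) and 59.03, 55.8 and 55.1 (set2Δ). Its set2Δ libraries lay above all others and it rose by 22.4% (0.29, SE 0.035, adjusted p = 2.3e-06), and it was not called in G34R or G34V.

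The other complex II assembly gene, sdh8, was at 30.9, 30.9 and 29.1 CPM (WT), 27.2, 27.6 and 27.5 (G34R), 30.8, 31.97 and 33.5 (G34V) and 33.3, 32.8 and 33.1 (set2Δ). G34R lay below WT and set2Δ above it, with a fall in G34R (−0.14, SE 0.033, adjusted p = 0.0024) and a rise in set2Δ (0.13, SE 0.034, adjusted p = 0.0029), and in G34V it was 0.080, adjusted p = 0.062. The cytochrome c1 haem lyase gene cyt2, whose enzyme attaches haem to cytochrome c1, was at 61.9, 62.7 and 61.97 CPM (WT), 61.3, 57.7 and 57.8 (G34R), 62.6, 60.9 and 64.7 (G34V) and 66.2, 69.1 and 66.3 (set2Δ). All set2Δ libraries lay above WT and all G34R libraries below. It rose in set2Δ (0.11, SE 0.029, adjusted p = 0.0033), and its call in G34R (−0.079, adjusted p = 0.032) was lost without WT replicates 1, 2 or 3 or G34R replicates 2 or 3 (adjusted p up to 0.13). Upper quartile scaling, library sizes alone and TMM on protein-coding genes also removed the G34R call of cyt2 (up to 0.27). The haem lyase gene of cytochrome c, cyc3, was at 83.4, 83.6 and 79.4 CPM (WT), 70.3, 73.9 and 72.1 (G34R), 80.01, 82.6 and 80.5 (G34V) and 84.7, 77.1 and 76.6 (set2Δ). G34R lay below WT, and the other mutants overlapped it. It fell in G34R (−0.19, SE 0.035, adjusted p = 0.00040), and G34R was below G34V (−0.17, SE 0.036, adjusted p = 0.0013) and below set2Δ (−0.14, SE 0.036, adjusted p = 0.0029) in the direct contrasts. Of the remaining complex IV factors, cox16 and cox18 fell in G34R (−0.21 and −0.17) and were called lower in G34V (−0.12 and −0.11), cox16 in G34V not without WT replicate 2 or G34V replicates 1 or 2 (adjusted p up to 0.089). Upper quartile scaling also removed the G34V call of cox16. Neither cox16 nor cox18 was called in set2Δ. The assembly gene cox20 was lower in G34R (−0.17, adjusted p = 0.00059) and set2Δ (−0.12, adjusted p = 0.0046) and had −0.045, adjusted p = 0.30 in G34V. Its set2Δ call was lost with upper quartile scaling and with library sizes alone (down to −0.062, adjusted p up to 0.17). The genes of the chaperones of the ATP synthase head, atp11 and atp12, fell in G34R (−0.14 and −0.13) and atp11 also in G34V (−0.12), and neither was called in set2Δ. For cox24 and the ATP synthase assembly gene atp25, called in G34R (−0.073 and −0.071), the calls were lost in 5 of 6 left-out fits each. The copies cox1101 and cox1102 encode closely related proteins, and reads aligned to several places were not counted, so their log2 fold changes, −0.12 to −0.32 for cox1101 and −0.14 to −0.28 for cox1102 over the 3 mutants, are uncertain. Leaving both out gave 40, 31 and 34 lower genes in place of 42, 33 and 36. The copper chaperone gene cox19 and the peptidase gene atp23 were not called in any mutant.

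**Figure D4:**
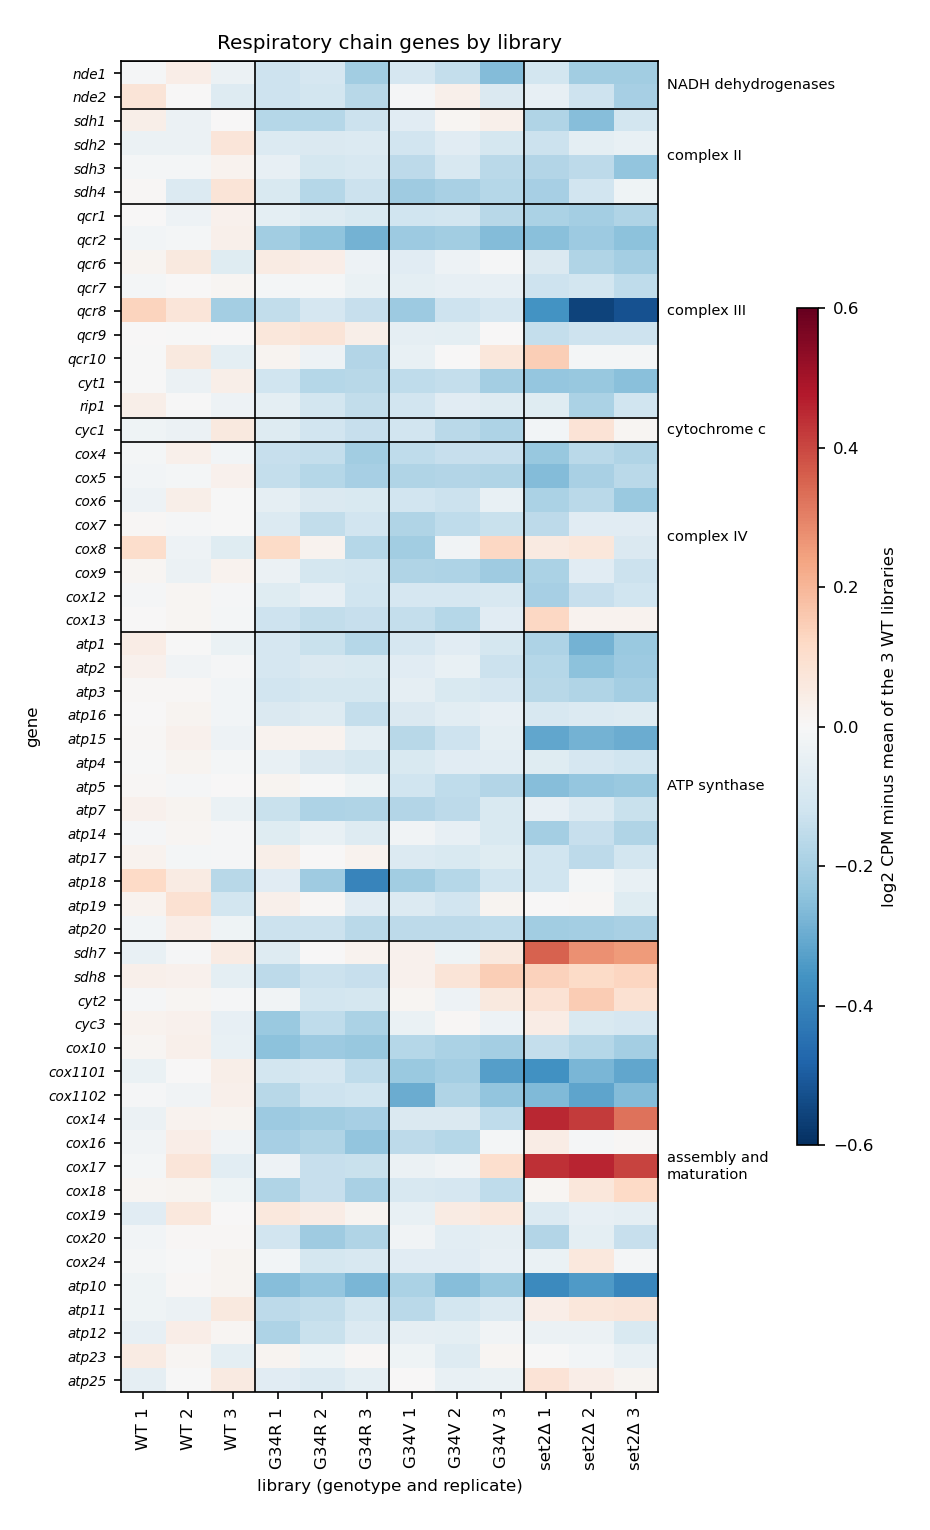
Log2 CPM minus the mean of the 3 WT libraries for each of the 56 genes (rows, by complex) in each of the 12 libraries (columns); blue is lower and red higher than WT. Blue prevails among subunits in all mutant libraries, and cox14, cox17 and sdh7 are red in the set2Δ libraries.

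The mutants were compared with each other directly. Between G34R and G34V, 7 genes were higher in G34R and 9 lower, where 25.2% and 25.3% of all tested genes were. The genes higher in G34R were led, by adjusted p, by atp5 and atp17 (0.10, SE 0.021, adjusted p = 0.00090), and those lower by sdh8 (−0.22, SE 0.034, adjusted p = 0.00010) and cyc3. Without G34R replicate 2, 5 genes were higher and 5 lower, and library sizes alone gave 10 and 3, beside 30.2% and 17.6% of all genes. In G34R against set2Δ, 21 genes were higher and 14 lower (34% and 35.4% of all genes). Under TMM scaling the split followed role: 17 of 37 subunit and cytochrome c genes were higher and 3 lower, and 4 of 19 assembly and maturation genes were higher and 11 lower. With library sizes alone the higher calls of the subunit genes atp1, atp3, atp20, cox12 and cyt1 were lost. So were those of the assembly genes atp10 and cox19. The higher genes were led by atp5 (0.23, SE 0.022, adjusted p = 1.3e-07) and atp15 (0.29, SE 0.029, adjusted p = 2.7e-07), the lower ones by cox14 (−0.61, SE 0.032, adjusted p = 1.7e-10) and cox17 (−0.54, SE 0.043, adjusted p = 2.1e-08).

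In G34V against set2Δ, 15 genes were higher and 10 lower (29.6% and 32.8% of all genes). Of subunit and cytochrome c genes 14 were higher and 2, cyc1 and cox13, lower, and of assembly and maturation genes 1 was higher and 8 lower. The higher genes were led by atp15 (0.18, SE 0.029, adjusted p = 6.4e-05) and atp14 (0.12, SE 0.024, adjusted p = 0.00038), the lower ones by cox14 (−0.50, SE 0.033, adjusted p = 3.1e-09) and cox17 (−0.42, SE 0.044, adjusted p = 6.0e-07). This split depended on the scaling: with library sizes alone 4 genes were higher and 17 lower (18.6% and 43.2% of all genes). The same scaling gave 14 higher and 16 lower in G34R against set2Δ (28.2% and 39.5%), and upper quartile scaling 15 and 16 (29.6% and 39.8%).

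Antisense RNA rows existed for 4 of the 56 genes. The strand setting of the counting is not given in the sources used here. The antisense RNA of atp3, the gamma subunit gene of the ATP synthase head, was at 1.62, 1.68 and 1.63 CPM (WT), 2.22, 2.48 and 2.25 (G34R), 2.104, 1.84 and 2.39 (G34V) and 3.66, 3.76 and 4.31 (set2Δ). All mutant libraries lay above WT and set2Δ above the others, and it rose in G34R (0.50, SE 0.090, adjusted p = 0.00026), G34V (0.35, SE 0.098, adjusted p = 0.0087) and set2Δ (1.27, SE 0.088, adjusted p = 3.4e-09). The sense transcript of atp3 was at 319, 319 and 313 CPM (WT), 293, 294 and 294 (G34R), 306, 298 and 296 (G34V) and 283, 280.3 and 276 (set2Δ), and fell by 0.11, 0.080 and 0.18 on the log2 scale. With upper quartile scaling its G34V call was lost (adjusted p 0.076). The cox1101 antisense RNA was also higher in all 3 mutants (0.49, SE 0.11, adjusted p = 0.0014 in G34R, 0.89, SE 0.11, adjusted p = 1.3e-05 in G34V and 0.61, SE 0.11, adjusted p = 0.00019 in set2Δ). That of atp18 was higher in G34R (0.14, SE 0.048, adjusted p = 0.020) and set2Δ (0.14, SE 0.050, adjusted p = 0.017) and lower in G34V (−0.20, SE 0.051, adjusted p = 0.0042). That of qcr10 was lower in set2Δ (−0.33, SE 0.071, adjusted p = 0.00080) and not called in G34R or G34V. Among all 617 tested antisense rows, 72% were higher in G34R, 61.4% in G34V and 77.6% in set2Δ.

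Properties not used to choose the genes were set beside the differences as a description, across genes that share the same libraries and are not independent. In set2Δ, longer coding sequences went with lower log2 fold changes (Spearman's rho −0.34 over 54 genes, −0.62 over the 19 assembly and maturation genes and −0.42 over 35 subunits). In G34R rho was −0.26 over the 54 genes, −0.056 over the 19 assembly and maturation genes and −0.30 over 35 subunits, and in G34V −0.13, −0.53 and 0.046. The order of the mutants depended on the length used. For exon length, rho over the 54 genes was −0.174 in set2Δ, −0.317 in G34R and −0.077 in G34V. Over the 19 assembly and maturation genes it was −0.376, −0.314 and −0.596, and over 35 subunits −0.414, −0.175 and 0.098. With the mean level over 12 libraries, rho was −0.36 in set2Δ, 0.096 in G34R and −0.069 in G34V over the 56 genes, and among the 19 assembly and maturation genes in set2Δ it was 0.51.

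The genes of pathways that feed the chain were counted beside it. Of 17 genes listed under the TCA cycle, 11 were lower in G34R, 6 in G34V and 13 in set2Δ. In set2Δ 2 were higher and the median was −0.24. The lower shares of the list were 64.7% (G34R), 35.3% (G34V) and 76.5% (set2Δ). Of all tested genes 26.6%, 25% and 35.6% were lower, and of protein-coding genes 32.6%, 29.8% and 41.8%. The list also holds genes of pyruvate dehydrogenase, which lies upstream of the cycle itself. In set2Δ pdx1 and lat1, which encode components of pyruvate dehydrogenase, led the TCA cycle list, with pdx1 falling from 295 ± 4.49 to 185 ± 9.32 CPM (−0.67, SE 0.031, adjusted p = 2.6e-11). Of 7 haem synthesis genes, 5, 2 and 6 were lower in G34R, G34V and set2Δ (71.4%, 28.6% and 85.7%). The G34V share was close to that of protein-coding genes, 29.8%. The haem synthesis gene hem2, which encodes aminolevulinate dehydratase, fell from 129.8 ± 1.17 to 100.3 ± 3.12 CPM in G34R (−0.37, SE 0.024, adjusted p = 1.2e-08), and its difference was −0.27 in G34V and −0.30 in set2Δ. Of 12 genes of coenzyme Q (ubiquinone) synthesis, 6, 7 and 7 were lower (50%, 58.3% and 58.3%), and 1 was higher in set2Δ. The gene dps1, of the enzyme that builds the ubiquinone side chain, fell from 38.9 ± 1.07 to 30.2 ± 0.890 CPM in G34V (−0.37, SE 0.043, adjusted p = 5.9e-06).

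Genes that express the mitochondrial genome were counted next. Of 29 factors for mitochondrial gene expression, 12 were lower and 2 higher in G34R, against 15 and 1 for G34V and 12 and 8 for set2Δ. The set2Δ shares are 41.4% lower and 27.6% higher, where 41.8% and 27.5% of protein-coding genes were. The mitochondrial RNA polymerase gene rpo41 fell from 217 ± 3.08 to 169 ± 1.04 CPM in set2Δ (−0.37, SE 0.020, adjusted p = 1.7e-10) and by 0.17 in G34V, where it had the lowest adjusted p of the list. Of 54 tested mitochondrial ribosome genes, 22 were lower and 5 higher in G34R, against 22 and 6 for G34V and 16 and 19 for set2Δ, 29.6% and 35.2% of the list there. The 8 genes encoded in mitochondria, which include subunits of the same complexes, had 2 lower and 2 higher in G34R, 3 higher in G34V and 4 higher in set2Δ, with medians of 0.0062, 0.11 and 0.26. The complex IV subunit cox2 of that genome rose from 6189 ± 74.7 to 7668 ± 363 CPM in set2Δ (0.31, SE 0.042, adjusted p = 8.7e-06). Of the 8 nuclear subunit genes of complex IV, 6 were lower there. The others, cox13 (0.055) and cox8 (0.0075), were not called.

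The CCAAT-binding Php complex, whose Php4 subunit in fission yeast represses genes of iron-using proteins when iron is scarce, had 2 of its 4 genes lower and php5 higher in G34R (0.18, SE 0.030, adjusted p = 0.00014), 2 lower in G34V and 1 lower in set2Δ. Of 17 genes of glycolysis and fermentation, 5 were higher and 2 lower in G34R, against 4 and 1 for G34V and 4 and 5 for set2Δ. The higher shares, 29.4%, 23.5% and 23.5%, stood beside 26.8%, 25.1% and 34.5% of all tested genes. The lower shares, 11.8%, 5.88% and 29.4%, stood beside 26.6%, 25% and 35.6%. The counts of these lists stand beside the shares of all genes called in each comparison given above.

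**Figure D5:**
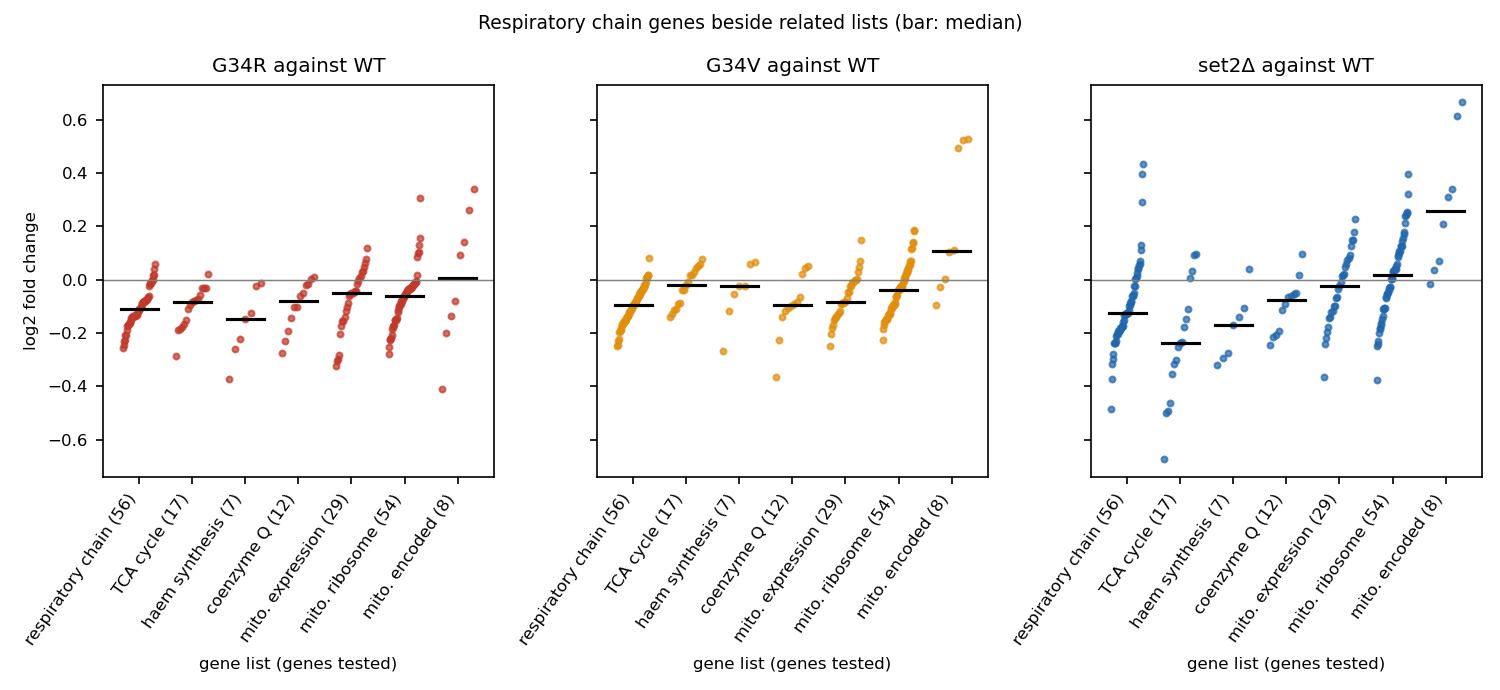
Log2 fold changes against WT (vertical axis) of the 56 respiratory chain genes and of 6 related lists (horizontal axis, number of tested genes in brackets) in G34R, G34V and set2Δ. Points are genes, sorted within each list, and bars are medians. In set2Δ the median of the mitochondrially encoded genes lies above 0, at 0.26. Those of the respiratory chain genes and the TCA cycle list lie below it, at −0.13 and −0.24. The TCA cycle list includes genes of pyruvate dehydrogenase.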

How the data were processed

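The values were integer read counts per gene, deposited by the authors as 1 file for each of 12 libraries with 7013 gene rows and 5 summary rows, which were left out of library sizes and tests. The submitters' processing notes name CASAVA 1.7, cutadapt, STAR, SAMtools and HTSeq (other versions not given in the sources used here) and build ASM294v2, and the labels' protocols a stranded kit. The libraries held 65797517 to 228726069 counts in genes, and 3 counts correspond to 0.0131 to 0.0456 CPM.

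Groups followed the labels. Genes were kept with filterByExpr (6602 tested), scaled by TMM and tested with the robust quasi-likelihood test of edgeR 4.0.16 in 1 model of all 12 libraries (8 residual degrees of freedom), with Benjamini-Hochberg adjustment over all tested genes and a threshold of 0.05. The 3 mutants were compared with WT and pairwise, 6 comparisons in all. CPM were computed here from the deposited counts. The procedure was tested on simulated data. Names and lengths came from build ASM294v3, which matched 54 of the 56 genes; coordinates, sequences and the planned promoter motif count were left out because the builds differ. Alternatives were RLE and upper quartile scaling, library sizes alone, TMM on protein-coding genes, other filters, DESeq2 1.42.0, limma 3.58.1, 2 groups only, a threshold of 0.01, set2Δ replicate 3 halved, and each library left out in turn. The same 4 scalings were applied to the summed levels, an alternative chosen after seeing the data.

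The genes, their grouping and the related lists were chosen with earlier results of these data known. Values in every library are given for the 4 genes with the lowest adjusted p in each direction against WT (2 between mutants), those called in opposite directions, and the highest of each complex per exon length; further members were described by role. Of the related lists, genes were named from the 2 with the lowest adjusted p in a comparison.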

Additional observations from a re-analysis of the deposited data

How the results depend on the processing

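No paired analysis was possible because replicate numbers follow accession order and link no library of one genotype to one of another. The genes picked by the rule above, mostly for a low adjusted p, had 2079 alternative values. Of these, 1948 kept their direction and side of the threshold, 102 lost a call, 29 gained one and 0 changed the sign of a called value. Over all 56 genes, 23 of the 42 lower calls in G34R held in every alternative. The same was so for 22 of 33 in G34V and 25 of 36 in set2Δ. The SEs of called differences against WT were 0.020 to 0.085. How much replicate spread and depth each contribute to them was not tested.

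With TMM on protein-coding genes, G34R had 26 lower genes, 15 of them subunits, and a median of −0.081; G34V had 1 higher gene, the assembly gene sdh8 (1), and a median of −0.075; set2Δ had 9 higher, 1 subunit and 8 assembly genes, and a median of −0.091; G34V against set2Δ had a median of 0.011. With library sizes alone, G34R had 24 lower, 14 of them subunits, and a median of −0.080; set2Δ had 10 higher, 2 subunits and 8 assembly genes, and a median of −0.063. The same setting gave 3 lower and a median of 0.021 for G34R against G34V, a median of −0.012 for G34R against set2Δ, and 4 higher, 17 lower and a median of −0.039 for G34V against set2Δ. With upper quartile scaling, G34V had 1 higher, an assembly gene (1), and a median of −0.067; set2Δ had 9 higher, 1 subunit and 8 assembly genes, and a median of −0.083; the medians against set2Δ were −0.0084 for G34R and 0.011 for G34V. At a threshold of 0.01, G34R had 0 higher (0 subunits) and 24 lower (14 subunits), G34V had 5 assembly genes lower, and G34R against G34V had 4 lower. DESeq2 and RLE scaling each gave 1 higher gene in G34V, an assembly gene (1). With 2 groups only the set2Δ median was −0.12. Over subunits alone there were 27 lower in G34R, 0 higher in set2Δ, and 2, 3 and 2 lower for G34R against G34V, G34R against set2Δ and G34V against set2Δ. The cause of these shifts was not tested.

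With single libraries left out, lower genes in G34R ranged from 26 (without G34R replicate 3) to 38 and lower subunits from 15 to 24, and higher genes were 0 to 1 in G34R and in G34V, with 0 to 1 subunits and assembly genes. Genes lower in G34R than in G34V ranged from 5 to 7. Medians ranged from −0.10 to −0.090 in G34V and from −0.13 to −0.11 in set2Δ, from −0.015 to 0.0064 for G34R against G34V, from −0.0036 to 0.035 for G34R against set2Δ and from 0.016 to 0.036 for G34V against set2Δ.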
